A study of Mus musculus with 2 samples.

Results

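DNA replication and mitosis genes were examined in cells grown from mouse LKS+ cells. These are sorted BM cells without lineage markers that carry Kit and Sca-1 and are enriched for hematopoietic stem and progenitor cells (HSPCs). The LKS+ cells were propagated in culture and then co-cultured with SP-derived extracellular vesicles (EVs) of CML mice or of normal mice. The genes were 49, of 22911 that could be named on the array: 24 that act in or around S phase and 25 that act in G2 and mitosis (G2/M). They were chosen by function, and all of their probes were taken, which were 72. All but Ccne2, 48 of the 49 genes, had signals well above background with either kind of EV. Between the cultures, each of these 48 genes differed by less than 0.32 in log2 ratio, which for a higher signal is 25%. Few genes passed that limit in general, 3.64% in either direction among 8783 genes at least as bright as the dimmest of the 48.

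Cyanine 3-labeled RNA of each culture was hybridized to its own one-colour Agilent mouse array, which gave 2 arrays in all. In the CML EV culture, LKS+ cells received 150 µg/ml EVs from the SP of CML mice for 24 h. In the control EV culture they received 150 µg/ml EVs from the SP of normal mice for 24 h. Both cultures were WT cells, propagated for 2 days beforehand in the same serum-free medium with BSA (1%). It held SCF at 100 ng/ml and IL-6 and IL-3 at 10 ng/ml each, cytokines that keep progenitors dividing. The methods describe no further sorting before RNA was taken. The CML mice are a transplant model in which the leukemia is started by retroviral BCR-ABL. According to the methods the CML mice had been irradiated before EVs were taken, which the labels do not mention, and no irradiation of the normal donors is described. Leukemia and irradiation of the EV donors therefore cannot be told apart. The labels give neither strain nor age of the mice, and no culture without EVs was on the arrays. With 1 array per condition no difference could be checked in a replicate, no test was made, and the values describe these 2 cultures.

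A cell copies its genome once per division. The MCM helicase is loaded onto origins in G1 and switched on in S phase, when the sliding clamp, the polymerases and the enzymes that make deoxynucleotides take over. Cyclin B with CDK1, the Polo and Aurora kinases, the centromere proteins and the spindle motors then carry the cell through mitosis. Transcription of the S-phase genes is known to be driven by E2F factors in late G1, and that of the G2/M genes by complexes that bind the CHR element, often next to CCAAT boxes. In BM most stem cells rest and most progenitors divide, and growth factors in culture bring stem cells into cycle.

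The promoters of 4 of the genes are shown because they hold short motifs that were found at different shares in the S-phase and the G2/M genes. Sequences are from RefSeq on the mouse build GRCm38.p6, 150 bases before to 50 bases after the gene's start, 5′ to 3′ on the gene's strand. Capitals mark matches, on either strand, to E2F motifs (TTTCGCGC, TTTGGCGC or TTTCCCGC), CHR motifs (TTTGAA or TTTAAA) and CCAAT. Mcm6 had the most E2F matches of the S-phase genes, Cdk1 the only E2F match among the G2/M windows searched, Plk1 the most CHR matches, and Cenpa was 1 of the 3 genes whose signals differed by more than 1.1-fold.
Mcm6, chr1:128359656-128359855, minus strand: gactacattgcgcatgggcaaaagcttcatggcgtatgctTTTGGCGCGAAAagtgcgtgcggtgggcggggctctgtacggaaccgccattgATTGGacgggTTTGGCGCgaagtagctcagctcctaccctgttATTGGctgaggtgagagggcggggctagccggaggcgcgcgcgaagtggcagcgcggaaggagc
Cdk1, chr10:69352863-69353062, minus strand: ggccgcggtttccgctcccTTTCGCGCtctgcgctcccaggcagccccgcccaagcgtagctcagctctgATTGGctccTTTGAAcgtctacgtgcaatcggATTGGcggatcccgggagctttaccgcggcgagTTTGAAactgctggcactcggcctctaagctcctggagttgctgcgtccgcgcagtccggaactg
Plk1, chr7:122159285-122159484, plus strand: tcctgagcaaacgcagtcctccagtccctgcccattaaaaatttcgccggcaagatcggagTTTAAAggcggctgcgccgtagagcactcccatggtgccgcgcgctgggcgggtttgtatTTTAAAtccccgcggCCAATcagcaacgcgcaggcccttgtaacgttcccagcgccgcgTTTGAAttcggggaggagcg
Cenpa, chr5:30666736-30666935, plus strand: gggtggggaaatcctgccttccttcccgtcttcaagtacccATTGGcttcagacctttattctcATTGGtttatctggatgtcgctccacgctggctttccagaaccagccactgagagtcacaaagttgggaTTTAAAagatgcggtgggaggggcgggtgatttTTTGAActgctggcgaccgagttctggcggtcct

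In the Mcm6 sequence, 2 E2F matches overlapped, starting 110 and 106 bases before the gene's start, and another started 47 bases before it. In Cdk1, the kinase that drives entry into mitosis, the E2F match started 131 bases and the CHR matches 71 and 15 bases before the start. Longer windows, from 250 bases before to 50 after the start, were matched by symbol for 39 of the 49 genes, which gave 42 windows; Gins1, Gins2, Mcm4, Pole, Ccne2, Ccna2, Cdc25c, Aurkb, Kif20a and Tpx2 were not matched. An E2F match was present in 9 of 21 S-phase windows (42.9%), against 1 of 21 G2/M windows (4.76%) and 606 of 32851 windows of all genes (1.84%). The CHR motif ran the other way, with 5 of 21 S-phase windows (23.8%), 18 of 21 G2/M windows (85.7%) and 27.6% of all windows. CCAAT was found in 15 S-phase windows (71.4%), 19 G2/M windows (90.5%) and 37.4% of all windows. Of a further 55 replication genes and 75 mitosis genes, listed by function, 48 and 63 were matched to windows. These gave the same order for each motif. The shares were 33.3% of 60 and 11.3% of 71 windows for E2F, and 21.7% and 63.4% for CHR. For CCAAT they were 43.3% and 70.4%, so that the further replication genes were nearer to all windows than the S-phase genes were. A match describes letters, not a bound site. Sorted by these letters, the genes had medians near 0, which on the log2 scale were 0.019 for 9 S-phase genes with an E2F match and 0.025 for 10 without, and 0.038 for 17 G2/M genes with a CHR match and -0.037 for 3 without.

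**Figure D1:**
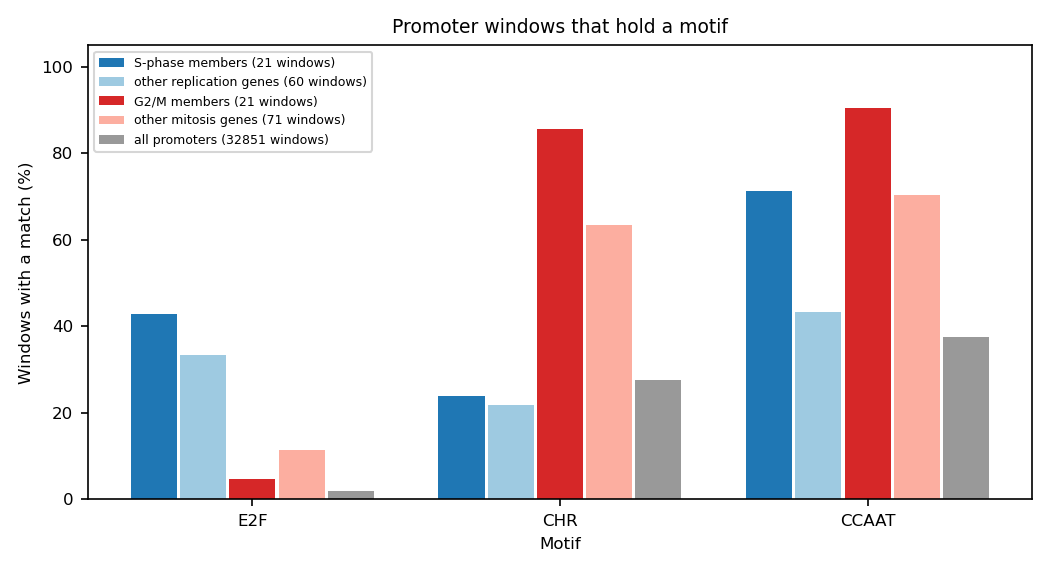
Share of promoter windows (percent, from 250 bases before to 50 after a gene's start) with at least 1 match to each motif on either strand, for the S-phase and G2/M genes, for the further replication and mitosis genes, and for all promoters. E2F matches were in 42.9% of S-phase and 4.76% of G2/M windows, and CHR matches in 23.8% and 85.7%.

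The signals below are the authors' background-subtracted intensities, multiplied by 1 factor per array that sets the trimmed mean (2% of spots left out at either end) to 2500. Signals of different genes come from different probes and cannot be ranked against each other. The ratio is CML EV over control EV on the log2 scale, above 0 where the CML EV signal was the higher one, and 0.32 in either direction is the limit used for a difference. No spot was saturated, and 53.3% of 59305 spots were well above background on the CML EV array and 54.4% on the control EV array. As to error, 263 probes at least as bright as the dimmest of the 48 genes were printed 8 to 10 times per array, and their log2 ratio varied between spots with a median SD of 0.034. The scanner software gives each of the genes' signals an error of about 10.0%, which amounts to 0.20 on the log2 ratio. Neither covers the spread between cultures or EV preparations. Of the 48 genes, 11 had a ratio within 1 such spot SD of 0 and 19 lay beyond 2. Among the 8783 genes at least as bright as the dimmest of the 48, 2154 lay within 1 and 4654 beyond 2. Most bright genes were thus beyond 2 spot SDs, and a gene beyond them is not set apart by it. Of the 48, 1 gene, Cdc25b, was beyond the software's error. Scaling to the median of all spots in place of the trimmed mean would add 0.070 to every ratio and turn the sign of 14 of the 48 genes. That scaling rests on dim spots, with medians of 21.2 with CML EVs and 22.2 with control EVs. The lowest signals well above background were 13.6 and 12.9. Scaling to the 75th percentile, to the mean of all spots or to the median of genes above background turned 2 signs each. Which side of 0 a small ratio lies on thus depends on the scaling.

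Among the S-phase genes, 15 were higher and 8 lower with CML EVs, beside 56.6% higher among 8783 genes at least as bright as Cdc25b. Their median ratio was 0.019 on the log2 scale, with an SD between genes of 0.059. Over the alternatives tried, between 11 and 21 were higher, and the scaling to the median of all spots gave a median of 0.089. The 6 subunits of the MCM helicase, which unwinds DNA ahead of the replication fork, had a median of 0.060. Mcm2 had a signal of 2826 with CML EVs and 2705 with control EVs, a log2 ratio of 0.063. Mcm3 had 23934 with CML EVs and 22992 with control EVs (0.058), and Mcm4 had 11450.3 with CML EVs and 10965 with control EVs (0.063). These 3 ratios were alike at the probes used, while the other probes of Mcm3 had 0.028 and -0.0071. Mcm5 had the highest ratio of the helicase, 0.087, with 8413 with CML EVs and 7921 with control EVs. Mcm6 had 32655 with CML EVs and 32238 with control EVs (0.019), and Mcm7 had 15925 with CML EVs and 16511 with control EVs (-0.052). At the probes used, Mcm7 was the 1 subunit that was lower with CML EVs, but the other probes had -0.12 for Mcm6 and 0.045 for Mcm7, Mcm7 was at 0.018 with the scaling to the median of all spots, and Mcm6 was at -0.0029 once a loess trend was removed.

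The factors that load and activate the helicase held both ends of the S-phase range. Gins1 and Gins2 are subunits of the same GINS complex, which travels with the active helicase. Gins1 had 1918 with CML EVs and 2089 with control EVs, the lowest S-phase ratio at -0.12. Gins2 had 2286 with CML EVs and 2109 with control EVs, the highest at 0.12. The second probe of each gene had the same sign and a smaller size, -0.020 for Gins1 and 0.050 for Gins2. Cdt1, which loads the helicase onto origins and is degraded once S phase starts, had 10328 with CML EVs and 9855 with control EVs (0.068). Its partner in loading, Cdc6, had 1502 with CML EVs and 1529 with control EVs (-0.026), with 0.063 at its other probe. Mcm10, which helps to start unwinding, had 4053 with CML EVs and 4028 with control EVs (0.0087). Of these, at the probes used, Cdt1 was just beyond 2 spot SDs, and Cdc6 and Mcm10 lay within 1.

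The 6 clamp and polymerase genes lay on both sides of 0, and their median was -0.020. Pcna, the sliding clamp, had 21758 with CML EVs and 21865 with control EVs, a ratio of -0.0071. The clamp loader subunits Rfc3 and Rfc4 went in different directions: Rfc3 had 2201 with CML EVs and 2292 with control EVs (-0.059), and Rfc4 had 4812 with CML EVs and 4699 with control EVs (0.034). Pola1, the catalytic subunit of the polymerase that starts each strand, had 2182 with CML EVs and 2164 with control EVs (0.012). Prim1, the primase subunit of the same complex, had 3904 with CML EVs and 4115 with control EVs (-0.076). At the probes used, Prim1 was the 1 gene of these 6 beyond 2 spot SDs. The other probes of Rfc3 (-0.12) and Pola1 (-0.079) were beyond 2 as well, and that of Pola1 was opposite in sign. Pole, of the leading-strand polymerase, had 2969 with CML EVs and 3038 with control EVs (-0.033). The enzymes of deoxynucleotide supply were each higher with CML EVs, but by less than 2 spot SDs, and Tyms was at -0.016 with quantile normalization and at -0.019 with the loess trend removed. Rrm1, the large subunit of ribonucleotide reductase, had 5804 with CML EVs and 5665 with control EVs (0.035), and Rrm2, the subunit whose level follows S phase, had 10915 with CML EVs and 10577 with control EVs (0.045). Tyms, thymidylate synthase, had 6449 with CML EVs and 6383 with control EVs (0.015).

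Genes that regulate the step from G1 to S phase showed no common direction. Cyclin E1, Ccne1, which activates CDK2 at that step, had 2535 with CML EVs and 2470.2 with control EVs (0.038). The transcription factor E2f1 had 1554 with CML EVs and 1575 with control EVs (-0.020). Uhrf1, which brings the maintenance DNA methyltransferase to newly copied DNA, had 8581 with CML EVs and 7998 with control EVs (0.10), and its second probe had 0.14. Uhrf1 was the 1 gene of these 3 beyond 2 spot SDs. Ccne2, the second cyclin E, was not well above background on either array, with a signal of 15.8 with CML EVs and 9.29 with control EVs, so that no ratio is given.

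**Figure D2:**
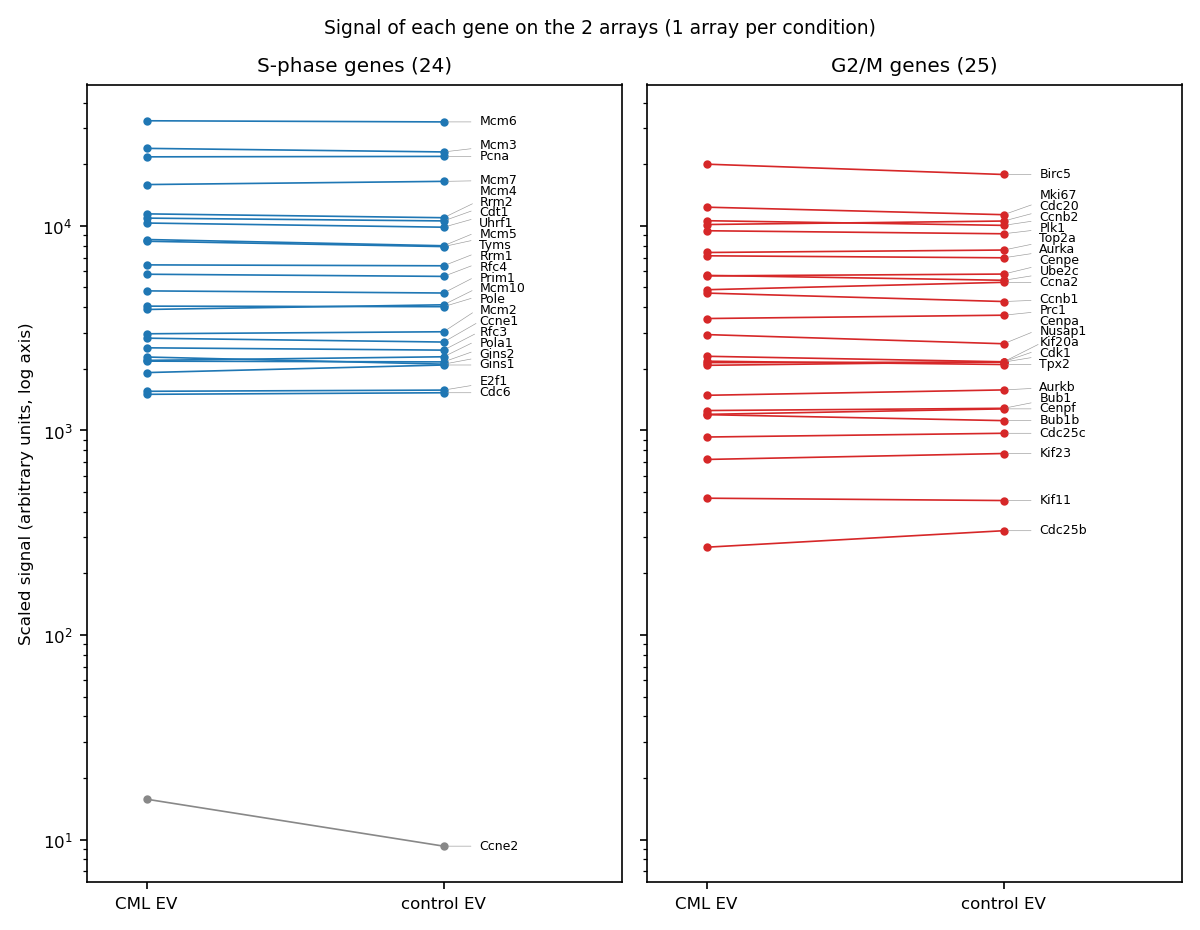
Scaled signal (arbitrary units, log axis) of each S-phase gene (blue) and G2/M gene (red) on the CML EV array (left point) and the control EV array (right point); lines join the 2 values of a gene. The lines run almost flat, Ccne2 (grey) was not well above background, and heights of different genes reflect their probes and are not comparable.

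Among the G2/M genes, 12 were higher and 13 lower with CML EVs, beside 56.6% higher among 8783 genes at least as bright as Cdc25b. Their median log2 ratio was -0.0075, with an SD between genes of 0.10. With the scaling to the median of all spots, 20 of them were higher. The cyclins shared no direction. Cyclin A2, Ccna2, which acts in S phase and G2, had 4875 with CML EVs and 5299 with control EVs, a log2 ratio of -0.12, and its second probe had -0.056. Cyclin B1, Ccnb1, had 4694 with CML EVs and 4269 with control EVs (0.14), while its 3 probes ran between -0.058 and 0.14. Cyclin B2, Ccnb2, had 10603 with CML EVs and 10059.6 with control EVs (0.076). Their kinase partner Cdk1 had 2147 with CML EVs and 2158 with control EVs (-0.0075), so that it was within 1 spot SD of 0. The CDC25 phosphatases remove the inhibitory phosphates from CDK1. Cdc25c had 929 with CML EVs and 969 with control EVs (-0.061). Cdc25b was the dimmest of the 48 genes and had the lowest ratio, -0.27, with 269 with CML EVs and 324 with control EVs. Its second probe, dimmer still, had 33.4 with CML EVs and 26.1 with control EVs, a ratio of 0.35, so that the probes of this gene disagreed in sign.

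The kinases and checkpoint genes spanned -0.087 to 0.097. Plk1, the Polo kinase that acts from mitotic entry to cytokinesis, had 9469.6 with CML EVs and 9152 with control EVs (0.049). Aurka, the kinase of the spindle poles, had 7143 with CML EVs and 6984 with control EVs (0.032), and Aurkb, the kinase of the chromosomal passenger complex, had 1486 with CML EVs and 1578 with control EVs (-0.087). Both Aurkb probes were below 0, the other at -0.13. The spindle checkpoint kinase Bub1 had 1251 with CML EVs and 1283 with control EVs (-0.037), and Bub1b, which encodes the checkpoint protein BubR1, had 1195 with CML EVs and 1117 with control EVs (0.097). Of the genes that serve the anaphase-promoting complex, its activator Cdc20 had 10156 with CML EVs and 10563 with control EVs (-0.057), with 0.042 at its other probe. Its ubiquitin-conjugating enzyme Ube2c had 5728 with CML EVs and 5422 with control EVs (0.079). Bub1b, Aurkb and Ube2c were beyond 2 spot SDs, and Plk1, Aurka, Bub1 and Cdc20 were not.

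The highest ratios of all 48 genes were in the centromere group. Birc5, which encodes survivin, the passenger complex subunit that holds Aurora B at centromeres, had 20034 with CML EVs and 17837 with control EVs (0.17), and its other probe had 0.14. Cenpa, the histone H3 variant that marks centromeres, had 2942 with CML EVs and 2654 with control EVs (0.15) at its single probe. The remaining members of this group did not share that direction: the kinetochore motor Cenpe had 5698 with CML EVs and 5815 with control EVs (-0.029), and Cenpf, a kinetochore protein, had 1199 with CML EVs and 1275 with control EVs (-0.090) with 0.030 at the other probe. Survivin and Aurora B belong to the same complex, and their ratios lay on different sides of 0 at both probes of each gene.

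Of the spindle and cytokinesis genes, 3 were higher and 3 lower with CML EVs. Kif11, the motor that pushes spindle poles apart, had 467 with CML EVs and 454 with control EVs (0.038). Tpx2, which activates Aurora A and nucleates microtubules, had 2181 with CML EVs and 2101 with control EVs (0.054), and Nusap1, a microtubule-binding protein of the spindle, had 2305 with CML EVs and 2166 with control EVs (0.089). The 3 lower ones were Prc1, Kif20a and Kif23, although Prc1 (0.016) and Kif20a (0.013) were above 0 with the scaling to the median of all spots. Prc1, which bundles microtubules of the central spindle, had 3525 with CML EVs and 3660.2 with control EVs (-0.054). Kif20a, a kinesin needed for cytokinesis, had 2082 with CML EVs and 2166 with control EVs (-0.057). Kif23, the kinesin of the centralspindlin complex, had 722 with CML EVs and 772 with control EVs (-0.096), and -0.28 at its other probe, with 431 with CML EVs and 523 with control EVs. The genes of mitotic chromosomes also lay on different sides of 0: Mki67, the Ki-67 antigen used to mark dividing cells, had 12345 with CML EVs and 11345 with control EVs (0.12), and Top2a, the topoisomerase that untangles sister chromatids, had 7414 with CML EVs and 7621 with control EVs (-0.040).

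**Figure D3:**
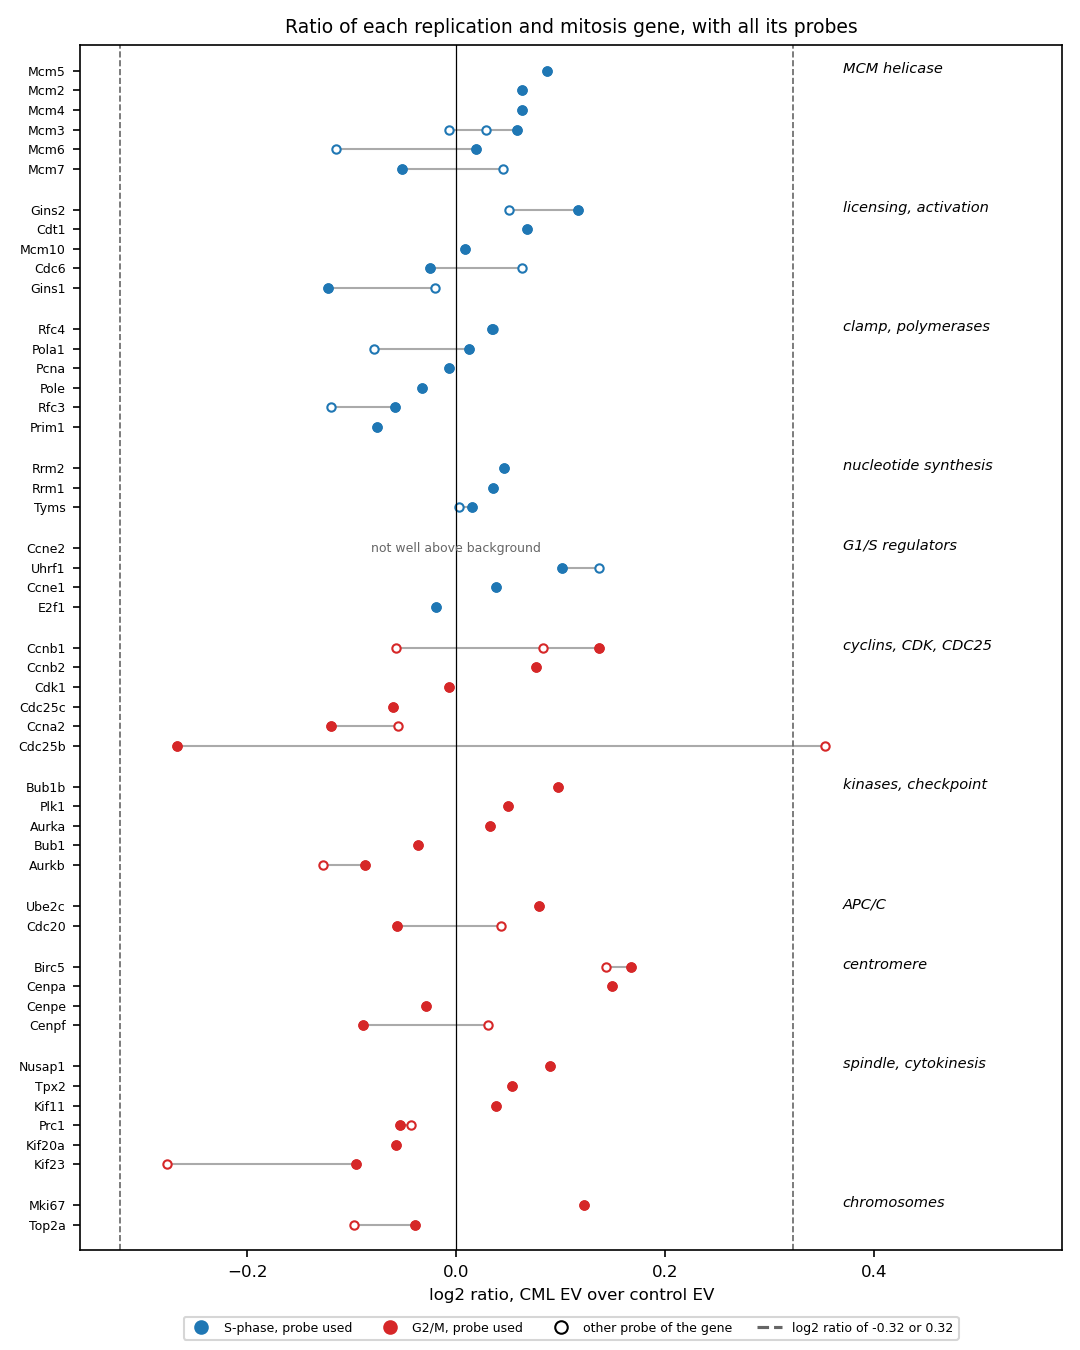
Log2 ratio, CML EV over control EV, of each gene by role, for the probe used (filled; blue, S phase; red, G2/M) and any other probes (open); dashed lines mark the limits of -0.32 and 0.32. All filled points lie between the dashed lines, from -0.27 for Cdc25b to 0.17 for Birc5, and 1 open point, of Cdc25b, lies outside them.

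Set side by side, the S-phase and G2/M genes had medians on either side of 0. Without Cdc25b the G2/M median was 0.012, so that both medians lay above 0. The median ratio of the G2/M genes minus that of the S-phase genes was -0.026 on the log2 scale, and -0.0061 without Cdc25b. It ranged from -0.041 to 0.014 over the alternatives tried and turned its direction, to 0.014, when the probes of a gene were averaged. The ratios of the G2/M genes were more spread, with an SD of 0.10, or 0.087 without Cdc25b, against 0.059 for the S-phase genes. None of the 23 S-phase genes and 3 of the 25 G2/M genes (Cdc25b, Cenpa and Birc5) were past 1.1-fold. Of the 48 genes, 27 had a ratio above 0, beside 51.9% of the 13411 genes measured well above background with both EVs and 56.6% of the 8783 genes at least as bright as Cdc25b. None was past 0.32, beside 5.01% of all genes past it on the higher and 5.25% on the lower side with CML EVs, and 3.64% in either direction among the 8783 bright genes. A fold of 1.1 was passed by 34.5% of all genes and by 23.5% of the bright ones. The SD of the log2 ratio was 0.084 over the 48 genes, 0.15 over the bright genes and 0.23 over all genes, and the median was 0.017, 0.018 and 0.0065.

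Several probes were present for 21 of the 49 genes, and they give a check within each array. The ratios of a gene's probes differed by a median of 0.066, and by 0.62 for Cdc25b and 0.19 for Ccnb1, the widest ranges. In 9 of the 21 genes the probes lay on both sides of 0. Of 71 probes well above background on both arrays, 70 were within 0.32.

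**Figure D4:**
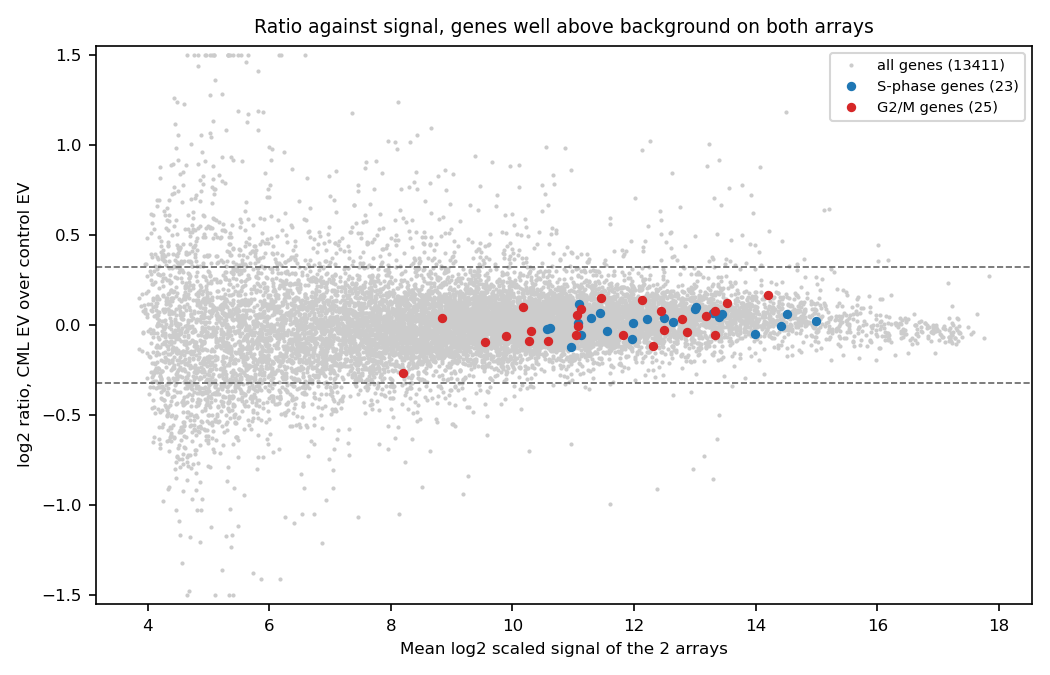
Log2 ratio, CML EV over control EV, against the mean log2 signal of the 2 arrays for 13411 genes measured on both (grey), with the 23 S-phase (blue) and 25 G2/M genes (red); dashed lines mark -0.32 and 0.32, and 24 genes beyond 1.5 on the log2 scale are drawn at the edge. The genes of both groups lie within the dashed lines and at or above the signal of Cdc25b, to the right of the wide scatter of dim genes.

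The further genes of the pathways, which were listed by function, had medians near 0 as well, which the scaling to the median of all spots moved to 0.065 for replication and 0.062 for mitosis. Among all 13411 genes measured, 51.9% were higher with CML EVs and 34.5% were past 1.1-fold. The 55 further replication genes, all of them measured, had a median of -0.0055, with 25 higher and 30 lower and 6 past 1.1-fold. Orc5, a subunit of the origin recognition complex, had the highest ratio of these, 0.69, with 171 with CML EVs and 106 with control EVs, while its second probe had 0.30. Prim2, the large primase subunit, had the lowest, -0.41, with 63.1 with CML EVs and 83.9 with control EVs. Orc5 and Prim2 were the only genes of the list past 0.32, and both had signals below the range over which the spot SD was taken. Next to them came Pola2, the second subunit of the starting polymerase, with 155 with CML EVs and 136 with control EVs (0.19). The Pola2 signals were likewise below that range. Mybl2, a transcription factor of the CHR-binding complex, followed with 7561 with CML EVs and 6995 with control EVs (0.11 and 0.86 at its second probe). At the low end were E2f7, a repressor of E2F targets, with 716 with CML EVs and 838 with control EVs (-0.23), and Dbf4, the activator of the kinase that fires origins, with 358 with CML EVs and 396 with control EVs (-0.14).

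The 75 further mitosis genes, likewise all measured, had a median of -0.0084, with 35 higher and 40 lower and 14 past 1.1-fold. Kifc1, a minus-end kinesin that clusters spindle poles, had 235 with CML EVs and 157 with control EVs (0.57) at its single probe and was the 1 gene past 0.32. Whether that probe also reads related kinesin genes was not tested. Hjurp, the chaperone that places Cenpa at centromeres, had 84.2 with CML EVs and 75.8 with control EVs (0.15) at its single probe. The signals of Kifc1 and Hjurp, and of Kif18a named below, were under the range over which the spot SD was taken. Pttg1, securin, had 9059 with CML EVs and 8195 with control EVs (0.14, and -0.20 at its other probe). The lowest ratios were those of Kif18a, a kinesin that aligns chromosomes, with 184 with CML EVs and 222 with control EVs (-0.27), Nek2, a centrosomal kinase, with 348 with CML EVs and 401 with control EVs (-0.20), and Psrc1, a microtubule-binding protein, with 1060.0 with CML EVs and 1216 with control EVs (-0.20).

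Markers of several cell types had ratios further from 0. Kit, which helps to define LKS+ cells, had 1529 with CML EVs and 1646 with control EVs (-0.11), and Ly6a, which encodes Sca-1, had 1985 with CML EVs and 1548 with control EVs (0.36). For comparison with the counts that follow, 51.9% of all 13411 genes measured were higher with CML EVs. Of 10 stem and progenitor markers, 1 was higher and 9 lower with CML EVs (median log2 ratio -0.18). Their summed signal was 48578 with CML EVs and 53446 with control EVs. Such sums, here and below, add signals of different probes. The brightest probes weigh most in them, and they do not measure the amount of a cell type. Of 11 neutrophil markers, 10 were higher (median 0.67), with a summed signal of 699764 with CML EVs and 538938 with control EVs; Elane, neutrophil elastase, was the highest at 1.18, with 34735 with CML EVs and 15311 with control EVs. All 6 megakaryocyte markers were lower (median -0.29), with a summed signal of 63984 with CML EVs and 70241 with control EVs. The summed signal of 6 monocyte and macrophage markers was 65079 with CML EVs and 47619 with control EVs, with Ly6c2 at 0.64, the highest of them. The medians were -0.036 for 7 erythroid and 0.036 for the monocyte and macrophage markers. They were 0.093 for 6 mast cell and basophil and 0.12 for 4 T and NK cell markers. Single genes lay further out, such as Hbb-bt, a globin of the erythroid list, at -0.70, and Nkg7, of the T and NK cell list, at 0.63. The T and NK cell list was split, with 2 genes higher and 2 lower, Cd4 (-0.17) and Cd3e (-0.073). The erythroid list went both ways, with 4 genes lower and 3 higher, which were Hba-a1 (0.23), Hba-a2 (0.19) and Klf1 (0.23). Of the B cell markers Cd79a and Ms4a1 and the T cell markers Cd3g and Cd8a, none was well above background on either array, whereas Cd79b, Cd3d, Cd3e and Cd4 were on both. The part of such shifts in the values of the replication and mitosis genes was not tested. In bulk RNA of this kind, fewer cells of a type and less RNA per cell cannot be told apart.

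**Figure D5:**
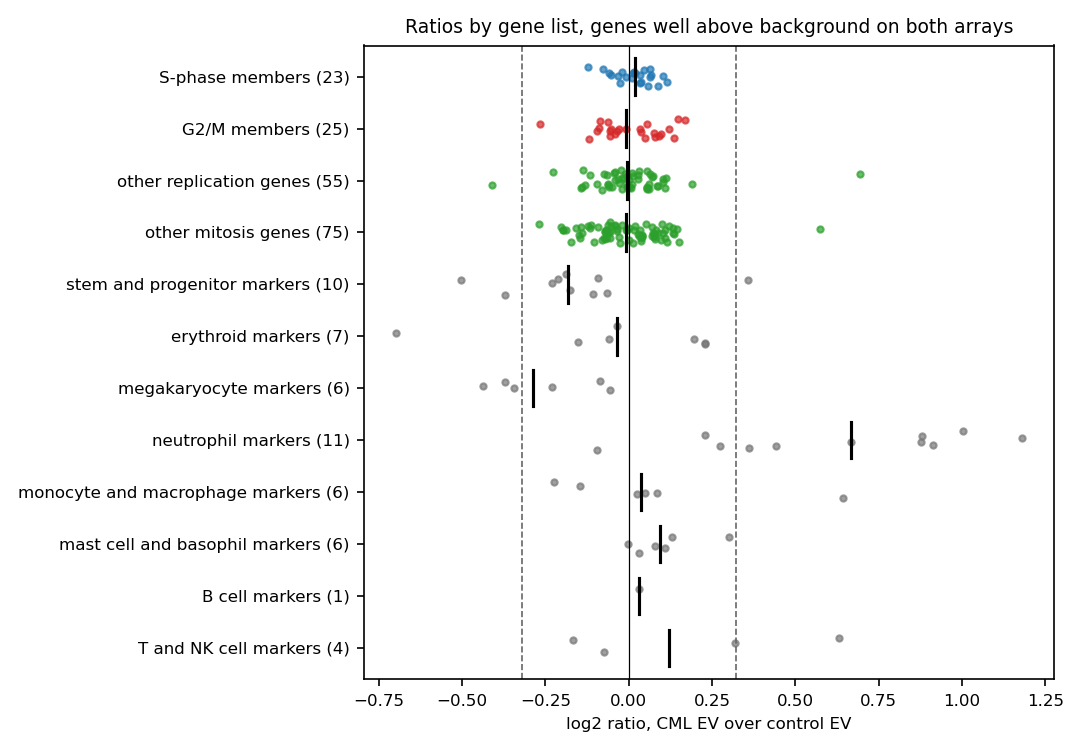
Log2 ratio, CML EV over control EV, of each gene well above background on both arrays, by list, with the number of genes in brackets; black bars are medians and dashed lines mark -0.32 and 0.32. The replication and mitosis lists center near 0 with the trimmed-mean scaling (medians from -0.0084 to 0.019), neutrophil markers lie to the right (0.67) and megakaryocyte and stem and progenitor markers to the left (-0.29 and -0.18).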

How the data were processed

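Total RNA of 2 cultures was labeled with cyanine 3 (0.1 µg each) and hybridized to 1 Agilent array each, on the same slide and in the same scan. The authors' deposited scanner files give a background-subtracted intensity per spot; the submitters' processing notes name Agilent Feature Extraction, version 12.0.3.1, as the tool. The authors' deposited value table is this intensity times 1 factor per array (0.947 for CML EVs, 0.942 for control EVs); it is neither on a log scale nor centred, and its medians were 21.2 for CML EVs and 22.2 for control EVs.

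Control spots and outlier spots (88 on the CML EV and 95 on the control EV array) were dropped. Signals were multiplied by the factor that brings the mean of an array, trimmed by 2% of its spots at either end, to 2500, and log2 values of repeated spots were averaged. Of 56604 probes, 32994 were named through their RefSeq accession (GRCm38.p6 gene table). The array design refers to another build, and no coordinates of it were used. Of a gene's probes the one with the highest CML EV value was taken, after the methods. Genes well above background on both arrays were counted.

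The members and lists were chosen with earlier results of these data known. Named were all members, the 3 highest and 3 lowest genes of each further list, and defining or extreme cell type markers. Motifs were searched in RefSeq promoters on both strands. Alternatives covered scaling, normexp background correction (limma 3.58.1, R 4.3.3), a loess trend (statsmodels 0.14.6, span 0.3), the choice of probe, filters and the fold. The computation of ratios and list medians was checked on simulated signals with known shifts, which tests the code and not the arrays. Python 3.11.15, numpy 2.4.6 and pandas 2.3.3 were used. The number of arrays limits the precision.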

Additional observations from a re-analysis of the deposited data

How the results depend on the processing

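No paired analysis was possible because there was 1 array for CML EVs and 1 for control EVs. Of 18 alternatives, 3 were added after seeing the data. The count of genes past 0.32 in log2 ratio was recomputed under the 14 that keep this limit and was 0 in all but 1: without a filter on dim probes it was 1, Ccne2, which was not well above background. At 1.1-fold (added) the count was 3. With the mean of all probes the median log2 ratio of the G2/M genes was 0.032 and the G2/M minus S-phase difference 0.014, so that both turned positive. Scaling to the median of all spots (added) moved all genes by 0.070; medians were then 0.089 for S-phase, 0.063 for G2/M, 0.065 for further replication and 0.062 for further mitosis genes, and 20 G2/M genes were higher with CML EVs. Relative to that shift the lists stayed near all genes (median 0.077). Over the alternatives the S-phase median ranged from -0.0029 to 0.089, the G2/M median from -0.037 to 0.063 and their difference from -0.041 to 0.014. Single genes turned sign in 5 of 48 cases with loess or normexp, 4 with the mean of probes and 3 with quantile normalization. Differences this small change direction with the scaling or probe. The spread between cultures is unknown, and spots of 1 array do not measure it.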
